A study of Mus musculus with 38 samples.

Results

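The mouse chromosome 7 interval that corresponds to human 15q11-q13 holds Ube3a together with imprinted and biallelic neighbours, and 9 of these neighbours were followed here through tissue, genotype and sex. They are Snrpn, Ndn, Magel2, Mkrn3, Peg12, Atp10a, Gabra5, Gabrg3 and Herc2, and they were picked by gene symbol, leaving Ube3a itself aside, as 9 of the 54165 genes in the count table. All 9 were present. The animals were adult FVB/NJ mice of both sexes, the females virgin. Ube3a2X mice were homozygous for a Ube3a transgene, so they carried 2 extra gene copies whatever the parent of origin, and both they and their wild-type (WT) littermates came from heterozygous parents. Poly(A) RNA was sequenced from micropunches of prefrontal cortex (PFC) and from excised hypothalamus (Hypo). PFC gave 20 libraries, with 5 in each group of sex and genotype, and Hypo gave 18, with 4 WT and 5 Ube3a2X libraries of each sex. By the numbers in their titles, the 38 libraries came from 25 mice, 13 of which gave both tissues. Labels and methods give no other allele or agent. The Ube3a2X mice were of 1 transgenic line, and a read of a gene does not say which parental chromosome it came from.

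In the mouse a cluster in this interval is imprinted: a control element at the Snrpn promoter is methylated on the maternal chromosome, and Snrpn, Ndn, Magel2, Mkrn3 and Peg12 are transcribed from the paternal chromosome. Loss of the paternal cluster in humans causes Prader-Willi syndrome, a disorder of appetite, growth and other hypothalamic functions, whereas loss of maternal UBE3A in neurons causes Angelman syndrome. Atp10a is described as imprinted in some settings only, and the GABA-A receptor subunit genes and Herc2 lie on the far side of Ube3a from the paternally expressed genes.

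In GRCm38 coordinates the members lay in the following order. Herc2 (ENSMUSG00000030451, chr7:56050196-56231800, plus strand) encodes a giant ubiquitin ligase that binds UBE3A. Gabrg3 (ENSMUSG00000055026, chr7:56716465-57387188, minus strand) and Gabra5 (ENSMUSG00000055078, chr7:57407672-57510059, minus strand) encode the gamma 3 and alpha 5 subunits of the GABA-A receptor, the chloride channel of fast inhibition. Atp10a (ENSMUSG00000025324, chr7:58656166-58829420, plus strand) encodes a P4-ATPase, a flippase that moves phospholipids across membranes, and its start lay at -0.573 Mb from that of Ube3a, where negative distances are towards the centromere. Snrpn (ENSMUSG00000102252, chr7:59982495-60140219, minus strand) encodes SmN, a brain-enriched protein of the spliceosomal Sm ring, and its gene start as annotated lay at 0.911 Mb. Ndn (ENSMUSG00000033585, chr7:62346569-62350262, plus strand) encodes necdin, a MAGE family protein of postmitotic neurons. Magel2 (ENSMUSG00000056972, chr7:62377010-62381640, plus strand) encodes a MAGE protein that works with TRIM27 and USP7 in retromer-dependent recycling of endosomal cargo. Mkrn3 (ENSMUSG00000070527, chr7:62417593-62420139, minus strand) encodes a makorin ubiquitin ligase whose loss in humans is linked to early puberty. Peg12 (ENSMUSG00000070526, chr7:62461871-62464510, minus strand), also known as Frat3, is a relative of the FRAT proteins that bind GSK3 in Wnt signalling. The 4 genes from Ndn to Peg12 each started between 3.12 and 3.24 Mb from the start of Ube3a, and Herc2 started at -3.18 Mb.

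The promoters of Magel2 and Peg12 are shown because these genes, with Ndn, had the largest differences between the tissues. Each sequence holds the 250 bases before the start that RefSeq gives, in GRCm38.p6, with CpG dinucleotides, the sites that imprinting marks methylate, in capitals. They lie at chr7:62376729-62376978 on the plus strand and chr7:62464511-62464760 on the minus strand. For Ndn the starts disagree: that of RefSeq, chr7:62348277, lies 1708 bases inside the gene as placed above, so its window falls within the annotated exon and is not printed whole.
Magel2: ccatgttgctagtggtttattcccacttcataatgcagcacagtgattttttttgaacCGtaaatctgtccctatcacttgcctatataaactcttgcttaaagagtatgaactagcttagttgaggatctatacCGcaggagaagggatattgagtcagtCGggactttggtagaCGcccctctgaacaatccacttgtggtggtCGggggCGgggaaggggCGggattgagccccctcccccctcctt
Peg12: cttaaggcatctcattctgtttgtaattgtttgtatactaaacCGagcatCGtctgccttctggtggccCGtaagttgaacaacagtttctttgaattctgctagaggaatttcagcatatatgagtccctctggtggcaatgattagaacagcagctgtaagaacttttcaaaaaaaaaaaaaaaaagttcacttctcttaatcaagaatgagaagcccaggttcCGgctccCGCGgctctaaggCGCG
The Magel2 promoter held 7 CpG dinucleotides, that of Peg12 held 8 and the Ndn window held 5. The median over the 32851 RefSeq promoter windows was 6.

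All 9 members matched a RefSeq window by symbol, with 13 windows between them. The letters CGCATGCG, which read the same on both strands, were present in each of the 4 Snrpn windows and in the Ndn window, and in 1.87% of all windows. They were picked after the sequences had been read, so the count is a description. The sites are given with the octamer in capitals because they are the sequence that the RefSeq windows of Snrpn and Ndn share. The Snrpn sites lie on the minus strand at chr7:60005150-60005174, chr7:60048031-60048060, chr7:60140285-60140314 and chr7:60450222-60450251, in that order, and the Ndn site lies on the plus strand at chr7:62348243-62348272.
Snrpn: attgcctgggaCGCATGCGtaggga
Snrpn: gcaaacatgcaCGCATGCGtcgttgaaggt
Snrpn: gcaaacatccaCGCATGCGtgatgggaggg
Snrpn: gcaaacatccaCGCATGCGtgattggaagg
Ndn: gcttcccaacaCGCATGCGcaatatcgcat
Relative to the start site of its window, the first base of the octamer was at 37 in the first Snrpn site, at -71, -78 and -63 in the other Snrpn sites and at -23 in Ndn.

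Libraries held 36.9 to 69.1 M counted reads (M, the mega prefix) in PFC and 39.0 to 381 M in Hypo, where the second largest held 126 M. The RNA integrity number (RIN) had a median of 7.6 in PFC and 8.95 in Hypo, and extraction kit and RNA input differed between the tissues, so that tissue cannot be told apart from these steps. All 8 cortical markers were higher in every PFC library than in any Hypo library, and all 10 hypothalamic markers were higher in every Hypo library than in any PFC library. Summed oligodendrocyte markers ranged from 907 to 3258 CPM (counts scaled to a common library size) in PFC and from 2888 to 4889 CPM in Hypo. Summed excitatory neuron markers ranged from 5961 to 10596 CPM in PFC and from 672 to 981 CPM in Hypo, without overlap. Of these 5 markers, 4 were higher in every PFC library. The other, Slc17a6, was higher in every Hypo library, with medians of 10.6 CPM in PFC and 393 CPM in Hypo. Summed choroid plexus markers ranged from 1.26 to 5.22 CPM in PFC and from 9.93 to 34.9 CPM in Hypo, without overlap. Of these 5, 3 were higher in every Hypo library. Aqp1 and Kcnj13 overlapped, and the Kcnj13 median was 0.509 CPM in PFC and 0.207 CPM in Hypo. The 5 pituitary markers together ranged from 0.624 to 4605 CPM in Hypo, with 2 of them at 0 in some libraries. The part of these cell types in the differences below was not tested. Ube3a separated the genotypes without overlap, at 186 to 268 CPM in WT and 698 to 2269 CPM in Ube3a2X PFC, and at 105 to 349 and 705 to 1666 CPM in Hypo. In 5 libraries read coverage along transcripts was uneven, with a median coefficient of variation over 0.53. They were PFC WT female 397, PFC Ube3a2X female 468, PFC Ube3a2X male 258, Hypo WT female 471 and Hypo Ube3a2X male 238, and values without them are given beside the results they change. Numbers after a group name are mouse numbers.

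Compared per kilobase of exon, the members spanned a wide range of levels, and Snrpn was the highest in both tissues. In PFC the mean levels were 437 ± 49.4 CPM per kb for Snrpn, 38.1 ± 9.31 for Ndn, 21.9 ± 4.46 for Gabra5, 21.5 ± 2.09 for Herc2, 5.48 ± 1.45 for Gabrg3 and 2.32 ± 0.326 for Atp10a (SD, n = 20). Mkrn3 (0.138 ± 0.0611), Magel2 (0.118 ± 0.0354) and Peg12 (0.0255 ± 0.0235) lay far below these. Neighbours in this order that did not differ beyond their spread were Gabra5 and Herc2, with Gabra5 higher in 11 of 20 libraries, and Mkrn3 and Magel2, with Mkrn3 higher in 11 of 20. In Hypo the order was Snrpn (307 ± 50.6 CPM per kb), Ndn (167 ± 39.4), Gabra5 (22.6 ± 3.21), Herc2 (21.9 ± 4.18), Magel2 (14.1 ± 1.88), Gabrg3 (6.44 ± 0.942), Atp10a (2.93 ± 0.509), Mkrn3 (0.237 ± 0.0645) and Peg12 (0.106 ± 0.0351; SD, n = 18). Gabra5 was above Herc2 in 9 of 18 Hypo libraries. Magel2 thus went from rank 8 in PFC to rank 5 in Hypo while the other members kept their relative order. The ranks were the same with the longest transcript as the length.

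**Figure D1:**
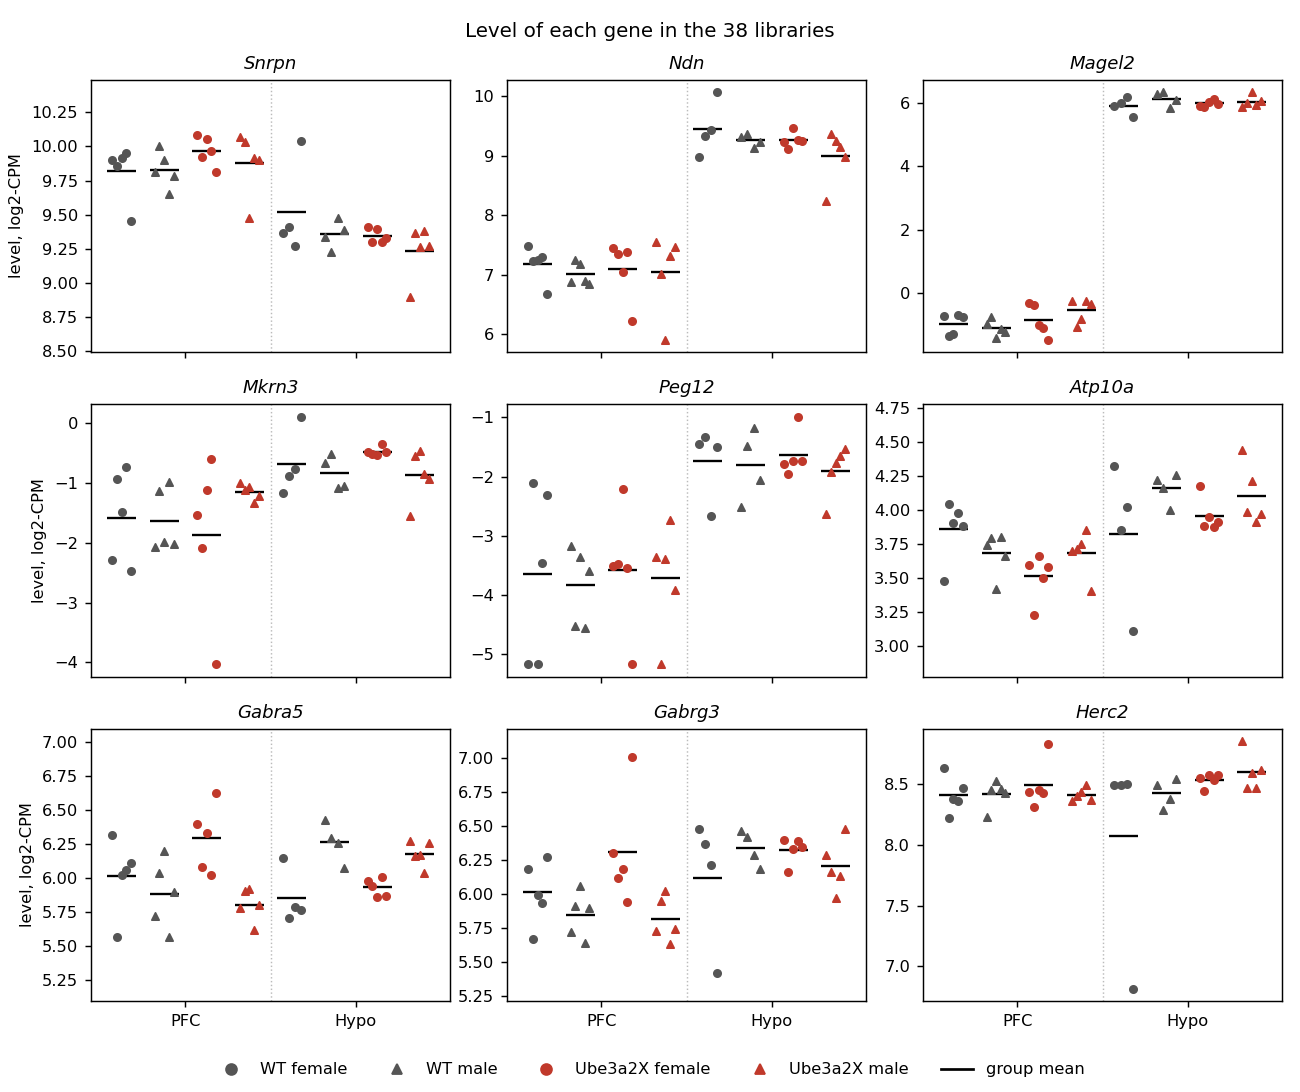
Level of each member in each of the 38 libraries, as log2 CPM (vertical axes), by the 8 groups of tissue, genotype and sex. Points are libraries and horizontal lines are group means; for Ndn and Magel2 every Hypo point lies above every PFC point.

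The first comparison asked how the members differ between the tissues. Of the paternally expressed genes, Magel2 and Ndn were far higher in Hypo, whereas Snrpn, the gene at the imprinting control element, was lower there. Peg12 and Mkrn3 were scarce. Peg12 was higher in Hypo as a description only, and the narrow call of Mkrn3, higher in Hypo, was lost in several fits. Atp10a was modestly higher in Hypo. For Gabra5, Gabrg3 and Herc2 no difference passed the test.

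Magel2 was at 0.333, 0.510 and 0.825 CPM in PFC (lowest, median and highest of 20 libraries, from 10 to 47 reads each). In Hypo it was at 46.6, 63.7 and 80.8 CPM (1991 to 25715 reads in 18 libraries). No PFC library came near a Hypo library, and the PFC mean was 0.836% of the Hypo mean. The log2 difference, Hypo minus PFC, was 6.92 ± 0.127 (SE), 121-fold, with an adjusted p of 1.02e-31 by edgeR's quasi-likelihood test across 22282 genes, and 154 of these genes had a larger difference towards Hypo. In bulk tissue such a difference cannot tell more cells of a type from more RNA per cell.

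Ndn was at 60.0, 151 and 188 CPM in PFC and at 303, 609 and 1072 CPM in Hypo. The tissues did not overlap for this gene either, and the log2 difference was 2.24 ± 0.186, 4.73-fold (edgeR, adjusted p 5.76e-13). The lowest PFC values, 60.0 and 75.2 CPM, and the highest and lowest Hypo values, 1072 and 303 CPM, all belonged to libraries of uneven coverage. Over all genes tested, 9.51% had Hypo values that were all above the PFC values and 10.9% had Hypo values all below them.

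The other makorin and FRAT-related genes of this stretch were scarce. Peg12 had 0 to 10 reads per library in PFC, with 4 libraries at 0, and 9 to 108 reads in Hypo. This gave 0.0674 ± 0.0619 CPM in PFC (SD, n = 20) and 0.279 ± 0.0926 CPM in Hypo (n = 18), a log2 difference of 2.36 ± 0.513 (edgeR, adjusted p 0.000146). Peg12 was too scarce in PFC for the filter and entered the test through Hypo, where it is high, so its call and its size are a description. Mkrn3 had 1 to 33 reads in PFC and 25 to 264 in Hypo, at 0.0333, 0.386 and 0.633 CPM against 0.312, 0.630 and 1.05 CPM (lowest, median and highest). Both genes overlapped between the tissues. The Mkrn3 difference of 0.69 ± 0.305 passed narrowly (edgeR, adjusted p 0.0463), but not without the libraries of uneven coverage (adjusted p 0.0701), and 20 of the 38 fits that left out a library lost it.

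Snrpn went the other way. It was at 703, 961 and 1084 CPM in PFC and at 477, 653 and 1052 CPM in Hypo. The ranges overlapped through PFC WT female 397 (703 CPM), PFC Ube3a2X male 258 (713 CPM) and Hypo WT female 471 (1052 CPM), all of uneven coverage, and Hypo WT male 403 (713 CPM), of even coverage, was also above the lowest PFC library. The log2 difference was -0.51 ± 0.0981, 1.42-fold lower in Hypo (edgeR, adjusted p 2.99e-05). Its exons hold all 216 exon bases of Snurf, the upstream reading frame of the same transcript. They also share 589 of 2159 bases with the unnamed gene Gm38393, so reads could be split between these genes. Those genes were also lower in Hypo, by log2 differences of -0.55 ± 0.0826 for Snurf and -0.42 ± 0.0864 for Gm38393 (edgeR, adjusted p 3.98e-07 and 8.02e-05). The Snurf value is not independent of that of Snrpn.

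Atp10a was at 9.33, 13 and 16.4 CPM in PFC and at 8.62, 15.9 and 21.6 CPM in Hypo. The ranges overlapped, with the lowest Hypo value in WT female 471, whose coverage was uneven. The log2 difference was 0.39 ± 0.114, 1.31-fold (edgeR, adjusted p 0.00322). It was 0.27 with an adjusted p of 0.0742 once 2 surrogate variables were added.

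The receptor subunits and Herc2 had like levels in both tissues. Gabra5 was at 65.2 ± 13.3 CPM in PFC and 67.2 ± 9.56 CPM in Hypo, and its log2 difference, after adjustment for RIN in the fit and so of opposite sign to the means, was -0.13, with a 95% interval of -0.30 to 0.05 (edgeR, adjusted p 0.212). Gabrg3 was at 65.4 ± 17.3 and 76.9 ± 11.2 CPM, a log2 difference of 0.07 (-0.16 to 0.31, adjusted p 0.617 by edgeR). Herc2 was at 347 ± 33.8 and 355 ± 67.6 CPM, a log2 difference of 0.04 (-0.21 to 0.30, adjusted p 0.791 by edgeR). The highest Gabrg3 and Herc2 values of PFC, 128 and 455 CPM, came from Ube3a2X female 468, and the lowest of Hypo, 42.8 and 113 CPM, from WT female 471. Without the 5 libraries of uneven coverage both genes passed the test, Gabrg3 with 0.29 and Herc2 with 0.16 (edgeR, adjusted p 0.00163 and 0.00871).

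In all, 6 of the 9 members passed, 5 higher and 1 lower in Hypo, with Peg12, which entered through Hypo, among them. Over all genes 63.4% passed, 32.4% higher and 31.0% lower, so the number of members that passed was near the background. The members' median was 0.39 and that of all genes 0.02.

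**Figure D2:**
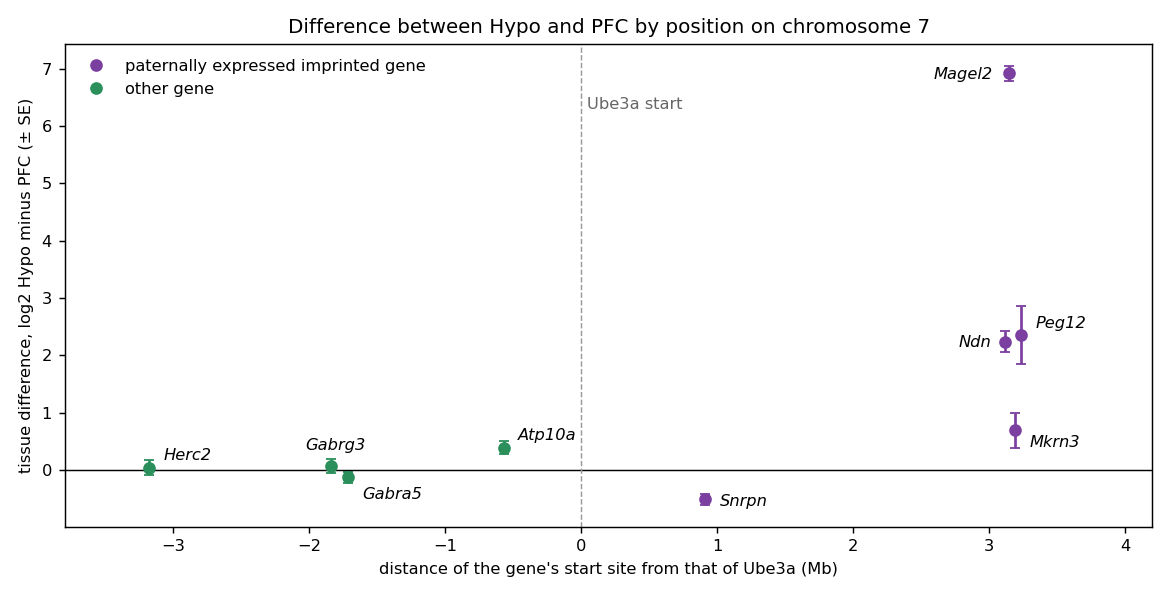
Log2 difference between the tissues, Hypo minus PFC, with its SE (vertical axis) against the distance of each gene's start from the Ube3a start in Mb (horizontal axis). The 4 genes beyond 3 Mb on the right all lie above 0, and Snrpn, nearest to Ube3a on that side, lies below it.

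Within the 13 mice that gave both tissues, the same contrast can be read in each animal. Magel2 was higher in Hypo in 13 of 13 mice, with a mean log2 difference of 6.86 ± 0.482 (SD) and a range from 6.11 to 7.44. Ndn (2.13 ± 0.655) and Atp10a (0.41 ± 0.177) were also higher in 13 of 13, and Snrpn (-0.60 ± 0.233) was lower in 13 of 13. For these 4 members the exact two-sided sign-flip permutation test gave p = 0.000244, the smallest it can give with 13 mice. Peg12 was also higher in each, by 2.02 ± 1.13, which is given as a description: its PFC library held 0 reads in 3 of these mice, where the difference depends on the prior count.

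Mkrn3 was higher in Hypo in 12 of 13 mice, by 0.87 ± 0.966 (exact permutation p = 0.00122). The exception was Ube3a2X male 238, whose Hypo library had uneven coverage, and the largest difference, 3.55, was in Ube3a2X female 468, whose PFC library held 1 read of the gene. Gabrg3 was higher in 11 of 13 (0.26 ± 0.361, exact permutation p = 0.0278), Herc2 in 9 of 13 (0.08 ± 0.187, exact permutation p = 0.13) and Gabra5 in 8 of 13 (0.08 ± 0.423, exact permutation p = 0.497). These are 8 tests and their p-values are not adjusted. When edgeR was fitted with the mouse as a block, 31.5% of all genes passed, and besides Peg12 3 members did: Magel2 (7.19 ± 0.350), Ndn (2.40 ± 0.466) and Snrpn (-0.54 ± 0.187). The Peg12 estimate of 5.52 ± 1.20 was more than 2 times that of the fit without the block and is a description. Atp10a narrowly missed (0.49 ± 0.178, adjusted p 0.0505) and Mkrn3 missed (1.31 ± 0.650, adjusted p 0.148), in a fit that used only the 26 libraries of these mice.

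**Figure D3:**
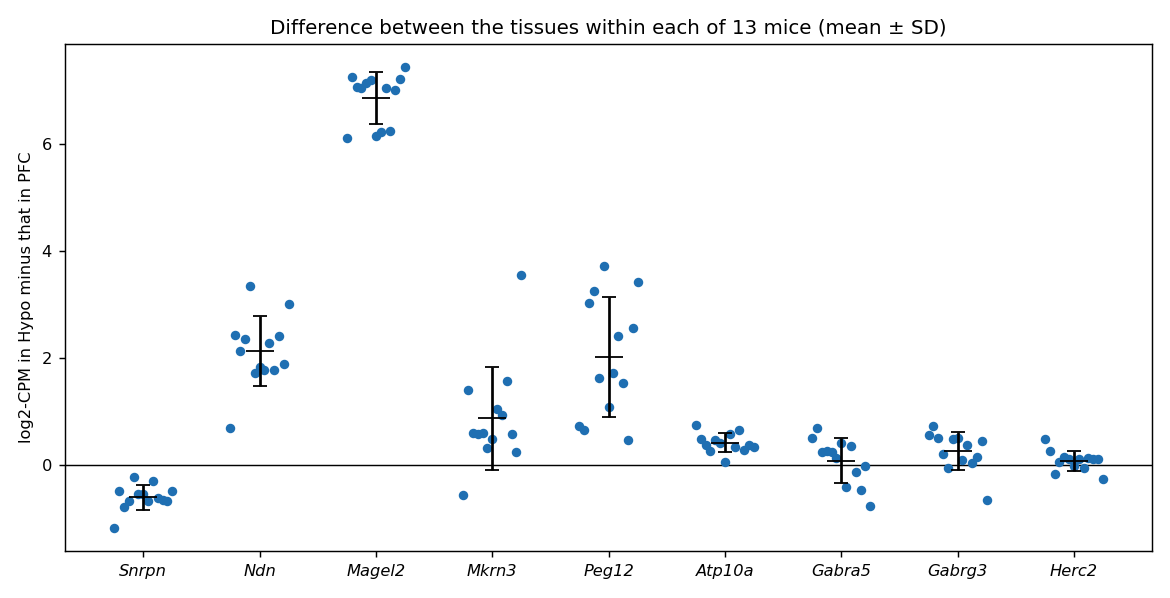
Log2 Hypo minus PFC of each member within each of the 13 mice that gave both tissues (points), with the mean and SD. Every point of Magel2, Ndn, Peg12 and Atp10a lies above 0 and every point of Snrpn lies below it.

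The tissue contrast was also taken within each genotype. In WT mice the same 6 members, Peg12 included, passed, 5 higher and 1 lower, where 60.7% of all genes did (31.6% higher and 29.0% lower). In Ube3a2X mice 5 members, again with Peg12, passed, 4 higher and 1 lower, where 55.5% did (27.7% higher and 27.8% lower). Magel2 differed by 7.13 in WT and 6.71 in Ube3a2X, Ndn by 2.35 and 2.14, Peg12 by 2.38 and 2.33 and Snrpn by -0.38 and -0.64. Atp10a differed by 0.28 in WT, narrowly past the threshold (edgeR, adjusted p 0.0457), and by 0.50 in Ube3a2X. The WT call held in 4 of 11 alternatives and in 21 of 38 fits that left out a library, and limma-voom and DESeq2 did not make it. Mkrn3 differed by 0.77 in WT (adjusted p 0.0377) and by 0.61 in Ube3a2X (adjusted p 0.196, both by edgeR), and its WT call held in 6 of 10 alternatives and in 30 of 38 fits that left out a library. Without the libraries of uneven coverage Mkrn3 in WT was not called (0.47, adjusted p 0.0964), whereas Gabrg3 in WT (0.37, adjusted p 0.000205) and Herc2 in Ube3a2X (0.23, adjusted p 0.00536, all by edgeR) were. Gabrg3 in WT was called in 4 of 11 alternatives, and also when Hypo WT female 471 alone was left out (0.30, adjusted p 0.0154 by edgeR). With the mouse as a block Magel2 and Ndn passed in each genotype, 2 members besides Peg12, where 26.9% of all genes did in Ube3a2X and 28.5% in WT, and Snrpn, Atp10a and Mkrn3 did not (Snrpn: adjusted p 0.0634 in Ube3a2X and 0.0804 in WT, edgeR).

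The test of the difference between genotypes, the tissue by genotype interaction, called 0 of the 9 members and 0.0% of all genes by edgeR, and limma-voom and DESeq2 called 0 members as well. At an unadjusted p under 0.05 there were 11.1% of all genes and 2 members, Magel2 (-0.42 ± 0.194) and Snrpn (-0.26 ± 0.128), with adjusted p-values of 0.421 and 0.443 by edgeR.

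The other genes of the interval, from chr7:55794154-62464510, gave the setting for these values. Of 42 non-members tested, 11 were higher and 12 lower in Hypo, which is 54.8%. Among the protein-coding ones, Cyfip1, a regulator of actin and translation, was higher by 0.31 ± 0.0667. Nipa2, a magnesium transporter, differed by -0.67 ± 0.0732 and Oca2, a melanosomal transporter, by -0.96 ± 0.314 (edgeR, adjusted p at most 0.00829 for these 3). The other genes that were higher were unnamed transcripts: Gm44644 (2.62), Gm44643 (2.42), A230006K03Rik (1.58), A330076H08Rik (1.41), Gm26498 (1.25), Gm9801 (1.13), A230057D06Rik (0.94), Gm38451 (0.93), Gm10297 (0.80) and Gm24966 (0.48). Besides Snurf and Gm38393, unnamed transcripts that were lower were Gm44830 (-1.57), A230056P14Rik (-1.50), Gm44616 (-1.29), Gm44829 (-0.91), 9330162G02Rik (-0.77), Gm44509 (-0.63) and Gm9962 (-0.44), whose exons share 148 bases with Gabra5 on the opposite strand.

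Genes that work with the members were read for the same contrast from 3 lists. Of 16 MAGE family genes and partners of Magel2, 6 were higher in Hypo and 4 lower, a share near the 63.4% of all genes that passed, with a median of 0.14 against 0.02 over all genes. Those higher were the MAGE genes Magee2 (2.04), Maged2 (1.25), Maged1 (1.13), Magee1 (0.56) and Mageh1 (0.48) and the ubiquitin ligase Trim27 (0.34). The deubiquitinase Usp7 (-0.49) and the retromer subunits Vps26a (-0.80), Vps29 (-0.37) and Vps35 (-0.21) were lower. Of the 7 Sm ring proteins, with which SmN assembles, 0 were higher and 1, Snrpd3 (-0.41), was lower by edgeR, and their median was 0.05. Of 13 P4-ATPases and their chaperones, the family of Atp10a, 7 were higher and 3 lower, where 32.4% of all genes were higher and 31.0% lower, with a median of 0.42, and the largest difference was that of the chaperone subunit Tmem30b (2.82). No gene of these lists was called in a genotype comparison by edgeR.

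The second comparison, the one the animals were made for, was Ube3a2X against WT. None of the members passed it in either tissue, whereas Ube3a did in both, with log2 differences of 2.33 ± 0.156 in PFC (edgeR, adjusted p 1.09e-06) and 1.97 ± 0.177 in Hypo (adjusted p 0.000598). The study's filter on low counts and low variance kept 5 members in PFC and 7 in Hypo. A wider filter, with the same surrogate variables, gave values for 8 members in PFC and all 9 in Hypo, and Peg12 in PFC was too scarce for either.

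In PFC 0 of 5 members passed by edgeR, limma-voom or DESeq2, where 0.0183% of all genes passed by edgeR. At an unadjusted p under 0.05 there were 2 members and 7.9% of all genes. Atp10a was at 10.7, 13.9 and 16.4 CPM in WT and at 9.33, 12.3 and 14.4 CPM in Ube3a2X (lowest, median and highest of 10 each). The genotypes overlapped over most of their range, and the log2 difference was -0.23 ± 0.0881, with a 95% interval of -0.40 to -0.06 (edgeR, unadjusted p 0.0167, adjusted p 0.506). Snrpn was at 703, 941 and 1028 CPM in WT and at 713, 985 and 1084 CPM in Ube3a2X, a log2 difference of 0.12 ± 0.0530 (edgeR, unadjusted p 0.0412, adjusted p 0.619). The other members differed by 0.06 (Ndn), 0.06 (Gabra5), 0.07 (Gabrg3) and, with the wider filter, by -0.02 ± 0.0540 (Herc2), 0.37 ± 0.186 (Magel2) and 0.41 ± 0.310 (Mkrn3), with 95% intervals that held 0 except for Magel2, at 0.01 to 0.74.

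Magel2 in PFC was at 0.346, 0.457 and 0.592 CPM in WT and at 0.333, 0.642 and 0.825 CPM in Ube3a2X, from 10 to 47 reads. At these counts the precision is low, and the genotypes overlapped. Its unadjusted p was 0.0580 and its adjusted p 0.440 by edgeR.

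In Hypo 0 of 7 members passed by edgeR, limma-voom or DESeq2, where 0.00843% of all genes passed by edgeR, and 0 members and 5.24% of all genes had an unadjusted p under 0.05. Estimates were small: Gabrg3 -0.13 ± 0.0602, Atp10a -0.12 ± 0.0730, Magel2 -0.10 ± 0.0701, Herc2 0.07 ± 0.0328, Ndn -0.07 ± 0.0549, Gabra5 -0.06 ± 0.0498 and Snrpn -0.01 ± 0.0416. The 95% intervals of these 7, from the normal approximation, lay between -0.26 and 0.13. Those of Gabrg3 (-0.245 to -0.00848) and Herc2 (0.00398 to 0.133) did not hold 0, with unadjusted p-values of 0.0510 and 0.0530 and adjusted p-values of 0.930 by edgeR's test. With the wider filter Mkrn3 differed by 0.23 ± 0.141 and Peg12 by -0.02 ± 0.286. Herc2 is the gene whose levels looked most apart, at 113, 360 and 372 CPM in WT and 349, 378 and 464 CPM in Ube3a2X, but the low end was the single library of WT female 471.

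A test that uses no model was run on the log2 CPM of each member in each tissue, with genotype labels permuted within sex. Of these 18 exact two-sided permutation tests, 1 had an unadjusted p under 0.05, Herc2 in Hypo, with a difference of 0.32 and an exact p of 0.00750. Without the libraries of uneven coverage that difference was 0.08 and the exact permutation p 0.0605. Leaving out these libraries moved 3 others past an unadjusted 0.05: Magel2 in PFC (0.48, exact permutation p 0.0187), Snrpn in PFC (0.12, exact permutation p 0.0107) and Mkrn3 in Hypo (0.30, exact permutation p 0.0166). These were chosen after the coverage was seen, and none is adjusted for the 18 tests.

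Within each sex the genotype comparison called 0 members. In PFC females 2 members had an unadjusted p under 0.05, Atp10a (-0.40 ± 0.131) and Snrpn (0.20 ± 0.0791), both with an adjusted p of 0.306 by edgeR, where 0.00917% of all genes passed. The Snrpn value was 0.07 without WT female 397, a library of uneven coverage. Of all genes, 14.6% had an unadjusted p under 0.05. In PFC males 0 of the 5 members of the study's filter did, where 0.0275% of all genes passed and 18.3% had an unadjusted p under 0.05, and of the 3 members that only the wider filter holds Magel2 did (0.63 ± 0.246, adjusted p 0.187 by edgeR). In Hypo males 2 did, Gabrg3 (-0.20 ± 0.0848) and Ndn (-0.17 ± 0.0773), with adjusted p-values of 0.524 and 0.529 by edgeR, and 0.0% of all genes passed while 9.2% had an unadjusted p under 0.05. In Hypo females 0 of 7 did, where 0.00843% of all genes passed and 2.93% had an unadjusted p under 0.05, and of the 2 members that only the wider filter holds Mkrn3 did (0.49 ± 0.184, adjusted p 1 by edgeR). limma-voom and DESeq2 also called 0 members in all 4. In Hypo males Ube3a itself missed the call by edgeR, with a log2 difference of 1.79 ± 0.245 (adjusted p 0.0718). The 0 members called in Hypo males by edgeR thus say little about smaller changes. The sex by genotype interaction called 0 members and 0.0% of all genes in PFC and in Hypo by edgeR, and 0 members by limma-voom and DESeq2. At an unadjusted p under 0.05 there were 0 members in either tissue, against 25.2% of all genes in PFC and 6.9% in Hypo. In PFC that of Atp10a was 0.33 ± 0.172 (adjusted p 0.231 by edgeR). It became 0.51 and passed (adjusted p 0.0352) when PFC WT female 93 was left out.

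**Figure D4:**
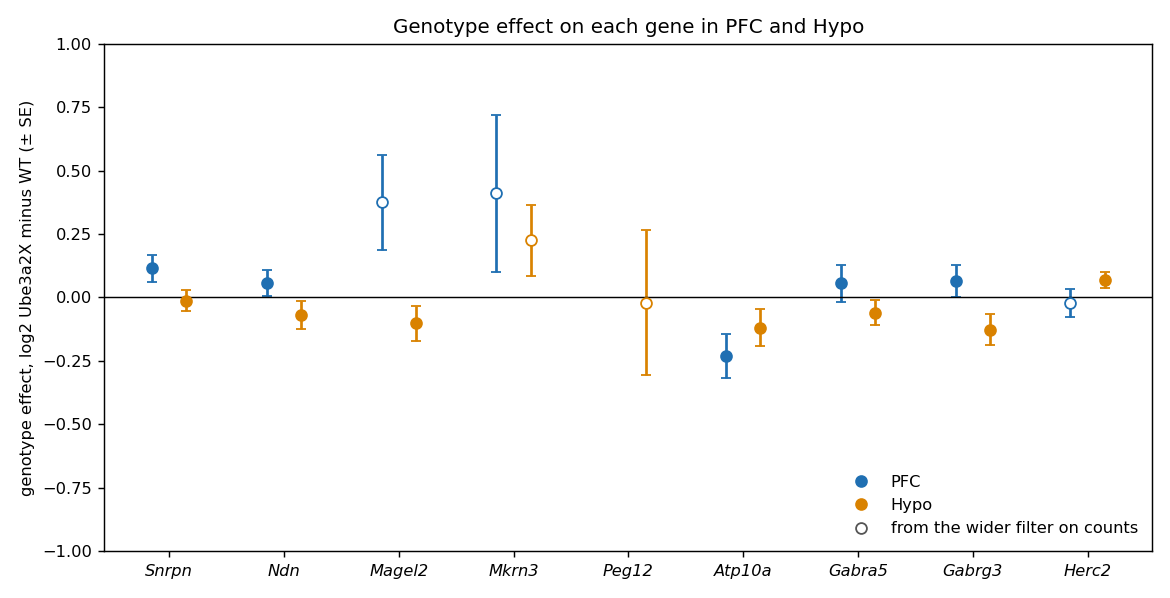
Genotype effect, Ube3a2X minus WT on the log2 scale, with its SE for each member in PFC and in Hypo. Open points come from the wider filter and Peg12 has no PFC estimate; the effects lie between -0.23 and 0.41, and none passed the test.

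Among the non-members of the interval, 1 besides Ube3a passed in PFC. 9330162G02Rik, an unnamed transcript, was higher in Ube3a2X by 0.85 ± 0.132 (edgeR, adjusted p 0.0285), among 17 tested. It was called in 9 of 13 alternative fits and in 11 of 20 that left out a library, with values from 0.79 to 0.97, and was not called without the libraries of uneven coverage (0.87 ± 0.15, adjusted p 0.174 by edgeR). In Hypo Ube3a alone passed, among 21 tested.

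The third comparison was between the sexes, and here 1 member stood out. Gabra5 was higher in the Hypo of males than of females. It was at 52.4, 58.4 and 70.9 CPM in Hypo females and at 65.8, 76.4 and 86.0 CPM in Hypo males (lowest, median and highest of 9 each). Females and males overlapped through WT female 262 (70.9 CPM), and among Ube3a2X mice they did not overlap, with females from 58.2 to 64.4 CPM and males from 65.8 to 77.5 CPM. The log2 difference, male minus female, was 0.30 ± 0.0483, 1.23-fold, with a 95% interval of 0.21 to 0.40 (edgeR, adjusted p 0.00484). Gabra5 was the 1 of 7 members that passed, where 2.3% of all genes did. It remained past the threshold in 18 of 18 fits that left out a library and in 12 of 13 other fits, and was 0.35 ± 0.0742 with an adjusted p of 0.0665 when no surrogate variable was used.

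In PFC the order was opposite. Gabra5 was at 47.5, 68.4 and 98.7 CPM in females and at 47.5, 57.7 and 73.4 CPM in males (10 each). The ranges overlapped widely, the highest value coming from Ube3a2X female 468 of uneven coverage, and the log2 difference of -0.18 ± 0.0738 did not pass (edgeR, adjusted p 0.486). The difference between the tissues in the effect of sex was tested as an interaction that was added after these values were seen. It was 0.63 ± 0.113 for Gabra5 (edgeR, adjusted p 0.0126), the 1 of 9 members that passed, where 0.0673% of all genes did. The estimate passed in 38 of 38 fits without a library. In the 13 mice with both tissues, fitted with the mouse as a block, it was 0.43 ± 0.157 with an adjusted p of 1 by edgeR, and 0 genes passed there.

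**Figure D5:**
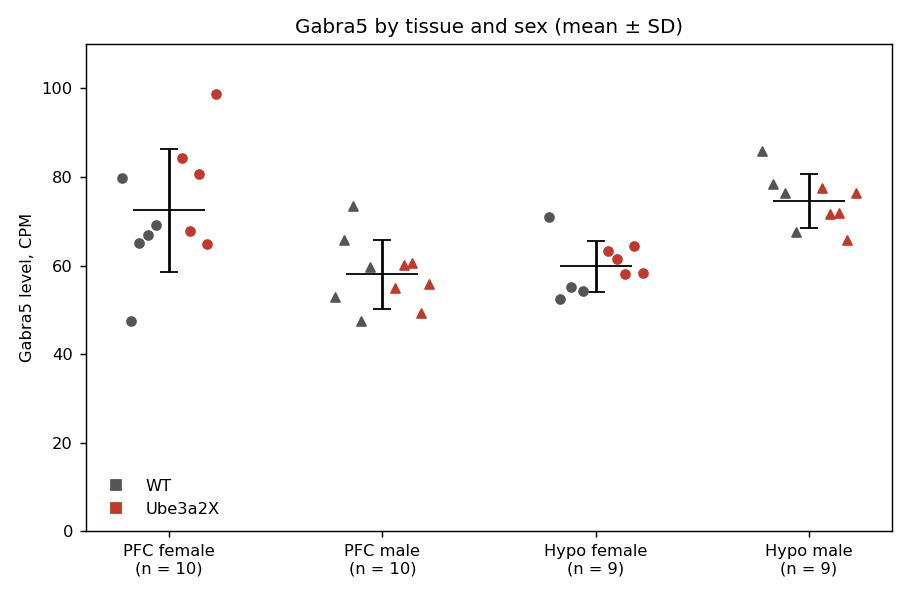
Gabra5 in CPM (vertical axis) by tissue and sex, with each library as a point and the mean ± SD. Hypo males average 74.6 CPM against 59.8 CPM in Hypo females, and PFC males 58.0 CPM against 72.4 CPM in PFC females.

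No other member passed in the comparison of the sexes. In PFC 0 of 5 did by edgeR, limma-voom or DESeq2, where 0.0917% of all genes passed by edgeR. At an unadjusted p under 0.05 there were 8.83% of all genes and 3 members: Gabrg3 (-0.21 ± 0.0650), Gabra5 and Ndn (-0.14 ± 0.0547), all lower in males, with adjusted p-values from 0.378 to 0.486 by edgeR. In Hypo the other 6 lay between -0.09 ± 0.0591 (Gabrg3) and 0.12 ± 0.0681 (Magel2). Of the MAGE list, Magee1 and Magee2 were lower in the Hypo of males, 2 of 10 tested (edgeR), where 2.3% of all genes passed in either direction.

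For each member the genes that followed it most closely across the 38 libraries, after the mean of each group was subtracted from log2 CPM, were found by Pearson's r over all genes tested. These values describe variation among libraries that share depth and RNA quality, and the second of each pair is over the 33 libraries without uneven coverage. Herc2 was followed by Wdfy3 (r = 0.989 and 0.890) and Sec16a (0.978 and 0.850), Ndn by Dctn3 (0.973 and 0.870) and Psmb5 (0.972 and 0.826), and Snrpn by Cox7b (0.961 and 0.763) and Ndufv2 (0.949 and 0.706). Gabrg3 was followed by Rabgap1 (0.949 and 0.867) and Cog5 (0.947 and 0.902), Mkrn3 by Edem2 (0.864 and 0.660) and Vamp8 (0.854 and 0.559), and Gabra5 by Vgll3 (0.845 and 0.850) and Grm8 (0.839 and 0.850). For Atp10a they were Tbc1d4 (0.809 and 0.720) and Rnf213 (0.804 and 0.622), for Magel2 Col5a1 (0.771 and 0.745), and for Peg12, with its few reads, Methig1 (0.674 and 0.689) and 4932441J04Rik (0.668 and 0.53).

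Between members, the paternally expressed Snrpn and Ndn moved together at r = 0.773 over 38 libraries, but at 0.142 over the 33 without uneven coverage. Gabra5 and Gabrg3, which lie side by side, moved together at 0.710 and 0.818. Gabrg3 and Herc2 were at 0.733 and 0.405, Mkrn3 and Gabrg3 at -0.718 and -0.409, and Snrpn and Herc2 at -0.635 and 0.113. Without the libraries of uneven coverage 3 of the 36 pairs had an r above 0.5 in size: the receptor subunit genes, Ndn and Magel2 (0.396 over all libraries and 0.548 without them) and Mkrn3 and Atp10a (-0.0687 and 0.509).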

How the data were processed

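Libraries were TruSeq stranded poly(A), paired-end. Per the labels and the study's methods, the authors aligned reads to GRCm38 (mm10) with STAR, and the deposited values are raw counts per gene from featureCounts, whose strand setting is not given in the sources used here. The authors also deposited RIN (a score) and Picard measures: the fraction of bases in UTRs or on the expected strand, and the coefficient of variation of coverage, a ratio. Fold changes and p-values were computed here. Of the columns of per-sample values, 1 was not used. Gene coordinates and exon lengths came from GENCODE vM21, which the deposited IDs were matched to.

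Per tissue, genes with under 100 reads in 2 or more libraries and the lowest 15% by variance were removed, and counts were fitted in edgeR 4.0.16 (TMM, robust quasi-likelihood) on the 4 groups, with RIN and 2 surrogate variables from sva 3.50.0 as covariates (R 4.3.3). Tissues were compared in 1 fit of all 38 libraries with filterByExpr and RIN. The call was an adjusted p (Benjamini-Hochberg, all genes tested) under 0.05. limma 3.58.1 (limma-voom) and DESeq2 1.42.0 were alternatives. CPM used TMM library sizes; log2 values used a prior count of 2. Intervals are the estimate ± 1.96 SE. Same-numbered samples of the 2 tissues were taken to come from 1 mouse, as read from the sample titles. The paper lists fewer mice for RNA-seq than the 25 counted this way. Deviations of these 13 pairs correlated at -0.309 to 0.211 (median -0.00559). Scripts were tested on simulated counts. The members and the lists were chosen with earlier results of these data known. Named genes were all members, the called genes of the interval and of the lists, and the 2 genes most like each member; 2 genes that this rule names are not reported here. Replicates within a group are separate mice. The main tissue fit treated the 38 libraries as independent, although 13 mice gave both tissues.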

Additional observations from a re-analysis of the deposited data

Results flagged for a closer look

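Gabra5 differed between tissues in the effect of sex: the interaction was 0.63 on the log2 scale (edgeR, adjusted p 0.0126), in a test added after the values were seen. Males were above females in Hypo, and the opposite difference in PFC did not pass (adjusted p 0.486). In the 13 mice with both tissues, with the mouse as a block, the interaction was 0.43 ± 0.157 and did not pass (edgeR, adjusted p 1).

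In 10 of 72 combinations of member and group, each of 4 or 5 libraries, a single library stood apart from the others by Dixon's criterion, where chance gives about 1 in 20, or 3.6. In 6 cases the value belonged to libraries of uneven coverage: Snrpn at 703 CPM in PFC WT female 397 (others 928 to 991), at 1052 CPM in Hypo WT female 471 (others 618 to 680) and at 477 CPM in Hypo Ube3a2X male 238 (others 613 to 666), Herc2 at 113 CPM in Hypo WT female 471 (others 360 to 362), and Gabrg3 at 128 CPM (others 61.5 to 78.9) and Herc2 at 455 CPM (others 317 to 350) in PFC Ube3a2X female 468. The part of coverage in these values was not tested. The other 4 were in libraries below that limit: Mkrn3 at 0.759 CPM (others 0.665 to 0.688) and Peg12 at 0.477 CPM (others 0.231 to 0.272) in Hypo Ube3a2X female 462, Atp10a at 18 CPM in Hypo Ube3a2X female 272 (others 14.7 to 15.4), and Gabra5 at 70.9 CPM in Hypo WT female 262 (others 52.4 to 55.2).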

How the results depend on the processing

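Of the counts of members called, 178 stayed within 1.5 times under the alternatives and 7 did not. With the study's filter on low counts, which removes Magel2, Mkrn3 and Peg12, 3 members passed in the tissue comparison, 3 in Ube3a2X and 3 in WT. With the mouse as a block 3 passed in Ube3a2X and 3 in WT, Peg12 included, and 0 in the tissue by sex interaction; beyond the calls given with the results, the pairing changed no other call, except that Atp10a in WT (0.28) had an adjusted p of 0.0591 by limma-voom with the mouse as a correlated block. With no surrogate variable 0 members passed in the Hypo comparison of the sexes. Leaving out 1 library gave 0 to 1 members in the PFC sex by genotype interaction, the 1 being Atp10a without WT female 93. Of the tested differences of single members, 1270 kept their side of the threshold, 12 gained and 23 lost the call, and none turned its direction while called. With the longest transcript as the length, 17 of 18 mean levels per kb moved by less than the SD between libraries, and Gabrg3 in Hypo, at 7.87 CPM per kb, by more. Mkrn3 lost its tissue call with a GC and length offset (0.50, adjusted p 0.128) and with RIN and 2 surrogate variables (0.42, adjusted p 0.285), and under the offset Gabra5 gained one (-0.28, adjusted p 0.00502); without RIN Gabrg3 did (0.25, adjusted p 0.00574; all edgeR). In WT the offset gave Herc2 a call lower in Hypo (-0.20, adjusted p 0.0237 by edgeR). That is opposite in sign to the Herc2 calls made without the libraries of uneven coverage. The causes were not tested. In Ube3a2X the offset moved the median tissue difference of all genes from -0.01 to -0.12. Removing the libraries of uneven coverage was chosen after seeing the data.

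Counts over all genes depended more on the method. The PFC sex by genotype interaction called 0 genes by edgeR and 804 by DESeq2, the PFC genotype effect 2 and 32, in females 1 and 9, in males 3 and 245, and the PFC sex effect 10 and 39. The Hypo sex effect called 273 genes, 7 with no surrogate variable and 840 without the libraries of uneven coverage. The Hypo genotype effect called 1 gene and at most 5 (without those libraries), in females 1 and 0 to 3, and in males 0 and at most 17 by DESeq2. The tissue by sex interaction called 15 genes, 7 higher and 8 lower, 10 and 7 with RLE factors, and 195 without those libraries, and the tissue by genotype interaction 0 and 117. The tissue effect called 14116 genes and 7017 with the mouse block, which used fewer libraries. Depth limits Peg12 in both tissues and Mkrn3 and Magel2 in PFC, where some libraries held 10 reads or fewer.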

Other observations

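The share of sequenced bases that fell in UTRs differed between libraries, from 40.3% to 50.0% in PFC and from 35.9% to 53.7% in Hypo, and some members followed it within a tissue (18 relations, chosen after seeing the data). Ndn in PFC did so over 20 libraries, with r = 0.798 (permutation p 0.00043, adjusted 0.00301) and rho = 0.480 (permutation p 0.034, adjusted 0.155), and r = 0.710 without the 2 libraries farthest from the median share. Snrpn in PFC had r = 0.792 (permutation p 0.00056, adjusted 0.00301; rho = 0.486, permutation p 0.031, adjusted 0.155), but 0.369 without those 2 libraries. In Hypo, over 18 libraries, Snrpn had r = 0.944 (permutation p 0.00053, adjusted 0.00301; rho = 0.430, permutation p 0.077, adjusted 0.186) and Herc2 r = -0.926 (permutation p 0.00067, adjusted 0.00301; rho = -0.515, permutation p 0.03, adjusted 0.155). These fell to 0.266 and -0.193 without the 2 farthest libraries. Ndn in Hypo had r = 0.833 (permutation p 0.005, adjusted 0.0128; rho = 0.249, permutation p 0.32, adjusted 0.439) and -0.0566 without those libraries. Atp10a in Hypo had r = -0.843 (permutation p 0.0013, adjusted 0.00475; rho = -0.309, permutation p 0.21, adjusted 0.349) and -0.0981 without those libraries, and Mkrn3 in Hypo r = 0.746 (permutation p 0.0017, adjusted 0.00513; rho = 0.445, permutation p 0.064, adjusted 0.186) and 0.22 without them, so all 5 relations named in Hypo rest on those 2 libraries. Mkrn3 in PFC had r = 0.524 (permutation p 0.026, adjusted 0.0586), rho = 0.597 (permutation p 0.0065, adjusted 0.116) and r = 0.845 without the 2 farthest libraries. The other 10 relations had adjusted p-values of 0.0663 or more for r, and 5 of them kept their sign and were larger in size without the 2 farthest libraries. These were Gabrg3 in PFC (r = -0.499, permutation p 0.037, adjusted 0.0663; rho = -0.445, permutation p 0.051, adjusted 0.184; r = -0.673 without them), Herc2 in PFC (r = -0.360, permutation p 0.12, adjusted 0.171; rho = -0.313, permutation p 0.18, adjusted 0.322; r = -0.588), Gabra5 in PFC (r = -0.290, permutation p 0.22, adjusted 0.263; rho = -0.388, permutation p 0.093, adjusted 0.186; r = -0.503), Magel2 in Hypo (r = -0.517, permutation p 0.036, adjusted 0.0663; rho = -0.420, permutation p 0.085, adjusted 0.186; r = -0.525) and Magel2 in PFC (r = 0.0746, permutation p 0.76, adjusted 0.767; rho = -0.0316, permutation p 0.9, adjusted 0.896; r = 0.231). In the other 5, r lay between -0.658 and 0.333 and, without the 2 farthest libraries, between -0.178 and 0.395.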
